A study of Homo sapiens with 12 samples.

Results

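Aminoacyl-tRNA synthetases (aaRS) are the enzymes that load each amino acid onto its transfer RNA, and their mRNA levels were followed in A375 cells, a BRAF-mutated human melanoma line, before, during and after exposure to inhibitors of the MAPK pathway. The members were chosen by gene symbol from a written list of 38 genes among the 44659 genes of the count table. The rule used no measured value, although earlier results of these data were known when the list was made. They comprise 19 cytosolic synthetase genes, 16 mitochondrial synthetase genes, whose symbols end in 2, and 3 genes for the scaffold proteins that hold several cytosolic synthetases together. Control cells (CC) were kept in DMSO for 72 h. MAPKi-treated cells (TC) were exposed over the same 72 h to the BRAF inhibitor vemurafenib at 500 nM together with the MEK inhibitor cobimetinib at 500 nM. Persister cells (PC) received the same MAPKi treatment and then 2 days of drug-free medium, and recovered cells (RC) received it and then 9 days of drug-free medium. Each group had 3 libraries of rRNA-depleted cytoplasmic RNA, with 37773389 to 55567097 counts per library, and the members took from 0.26% to 0.765% of the counts.

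The samples limit what can be compared. A375 is 1 cell line, all 4 groups rest on its cytoplasmic RNA, and neither enzyme nor charged tRNA was measured. CC was harvested after 72 h, so the drug-free interval and the longer time in culture cannot be told apart in PC and RC. Bulk RNA cannot tell fewer cells of one kind from less RNA per cell. The labels number the replicates but do not say how separate the cultures were, so the p-values measure the spread between these libraries, which may be technical. Among melanoma line markers, SOX10 stood between 538.8 and 1067 CPM and MITF between 146.7 and 476.1 CPM in all 12 libraries, whereas MLANA stayed at or below 1.94 CPM, where CPM is the count scaled to the TMM-normalised library size. The 8 melanoma markers together took 1828 to 2006 CPM in CC, 7224 to 10430 in TC, 3647 to 5256 in PC and 1635 to 1695 in RC, and the 9 markers of other cell types took 2.16 to 6.07 CPM over all libraries. DCT, a melanin synthesis enzyme gene, made up most of the rise (407.1 ± 60.9 CPM in CC and 6452 ± 1317 in TC), while S100B fell in TC (-0.91, adjusted p = 2.17e-06) and MITF and S100A1 were not called there. Of the other cell type markers, KRT14 rose in PC (0.0151 ± 0.0261 CPM in CC, 2.29 ± 0.351 in PC) and in TC (0.396 ± 0.142), and PTPRC and VWF were lower in both. The part of these shifts in the synthetase values was not tested. Of 8 genes that report MAPK signalling, 8 were lower than CC in TC, 8 in PC and 2 in RC, beside 34.7%, 35.9% and 19.1% of all tested genes. ETV4, a transcription factor gene whose expression depends on ERK signalling, averaged 234.8 ± 4.08 CPM (SD, n = 3 here and below) for CC, 2.61 ± 0.201 for TC, 1.73 ± 0.309 for PC and 232.2 ± 6.02 for RC.

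Each synthetase recognises 1 amino acid, activates it with ATP and joins it to the matching tRNAs, so that the ribosome reads a codon as the right residue. Most amino acids have a cytosolic enzyme and a separate nucleus-encoded enzyme imported into mitochondria, while GARS1 and KARS1 each serve both compartments and EPRS1 joins the glutamyl and prolyl enzymes in a single chain. When amino acids run short, uncharged tRNA activates the kinase GCN2, and the transcription factor ATF4 that is then translated is known to raise amino acid transporters, biosynthetic enzymes and many cytosolic synthetases through a composite element that ATF4 binds with C/EBP proteins.

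Because this element is a known feature of cytosolic synthetase promoters, the RefSeq promoter windows (GRCh38.p14, 250 bases before to 50 bases after a start) were searched for TGATGNAA on both strands, as were the E-box CACGTG and the cyclic AMP element TGACGTCA, and no stretch of letters can match more than 1 of the 3 in full. Windows were found for 33 of the 38 members, and not for LARS1, VARS1, YARS1, AARS2 and VARS2. TGATGNAA occurred in the window of 7 of 16 cytosolic members (43.8%), 1 of 14 mitochondrial members (7.14%) and 0 of 3 scaffold genes. Of all tested genes with a window, 332 of 11587 (2.87%) held it, and of 15 matched genes of the ATF4 axis, 4 (26.7%). The E-box was found in 6.25% of the cytosolic, 21.4% of the mitochondrial and 12.4% of all tested windows, and the cyclic AMP element in 0 cytosolic and 0 mitochondrial members and in 3.67% of all. A gene could have several windows, 1.31 per cytosolic member and 1.45 per tested gene, and a match in any of them was counted. A match describes letters in a window and does not show that a protein binds there. The stretches that hold the matches are printed along the gene's strand, with the 8 matching bases in capitals, and in all but NARS1 and YARS2 the element lies on the opposite strand, so that its reverse complement is seen.
AARS1, chr16:70289676-70289703, minus strand: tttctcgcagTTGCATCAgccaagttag
CARS1, chr11:3057408-3057435, minus strand: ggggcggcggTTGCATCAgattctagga
GARS1, chr7:30594835-30594862, plus strand: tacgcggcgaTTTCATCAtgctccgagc
IARS1, chr9:92293693-92293720, minus strand: tttcagcgcgTTGCATCAcctccgtgcg
MARS1, chr12:57488054-57488081, plus strand: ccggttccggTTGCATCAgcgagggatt
NARS1, chr18:57621805-57621832, minus strand: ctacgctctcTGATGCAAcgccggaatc
TARS1, chr5:33440957-33440984, plus strand: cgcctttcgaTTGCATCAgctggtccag
YARS2, chr12:32756077-32756104, minus strand: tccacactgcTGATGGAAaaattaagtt
With the annotated start as 0, the element began at -2 in CARS1, -4 in MARS1, 2 in TARS1, -13 in IARS1, 14 in NARS1, -33 in GARS1, -187 in AARS1 and -197 in YARS2.

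Not every member could be measured from its own row of the table. The members CARS1, VARS1, SARS2 and VARS2 had numbered copies listed beside them, 13 in all, which hold counts under the same symbol. The row named CARS1 held 90.8% of the counts of the gene and its copy, VARS1 held 39.8%, VARS2 0.772% and SARS2 0.0933%. SARS2 had 4 counts and VARS2 35 counts over all libraries, below the filter of a mean scaled count of 10, so 36 of the 38 members were tested. VARS1 reached 24 CPM in RC replicate 2 and at most 1.98 CPM in the 11 other libraries. IARS1 differed 5.41-fold between the CC libraries. The counts of cytosolic enzymes called in each comparison are therefore given a second time without the 4 members that have copies and without IARS1, a choice made after their values were seen.

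After 72 h of MAPKi, mRNAs of nearly all synthetases were lower than in CC, and none was higher. Of the 36 tested members, 31 (86.1%) were called lower and 0 higher (edgeR quasi-likelihood test on all 12 libraries, Benjamini-Hochberg adjusted p under 0.05 over 15916 genes), while 34.7% of all tested genes were called lower and 33.2% higher. Beyond 1.5-fold, 21 members (58.3%) were lower and 0 higher, against 19.3% and 16.1% of all genes. Over the members the median log2 fold change was -0.90, and over all tested genes -0.02. Cytosolic enzymes were lower in 18 of 19 cases (15 beyond 1.5-fold, median -1.11) and mitochondrial enzymes in 11 of 14 (5 beyond 1.5-fold, median -0.35). Without the doubted members, 16 of 16 cytosolic enzymes were lower, with a median log2 value of -1.23.

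**Figure D1:**
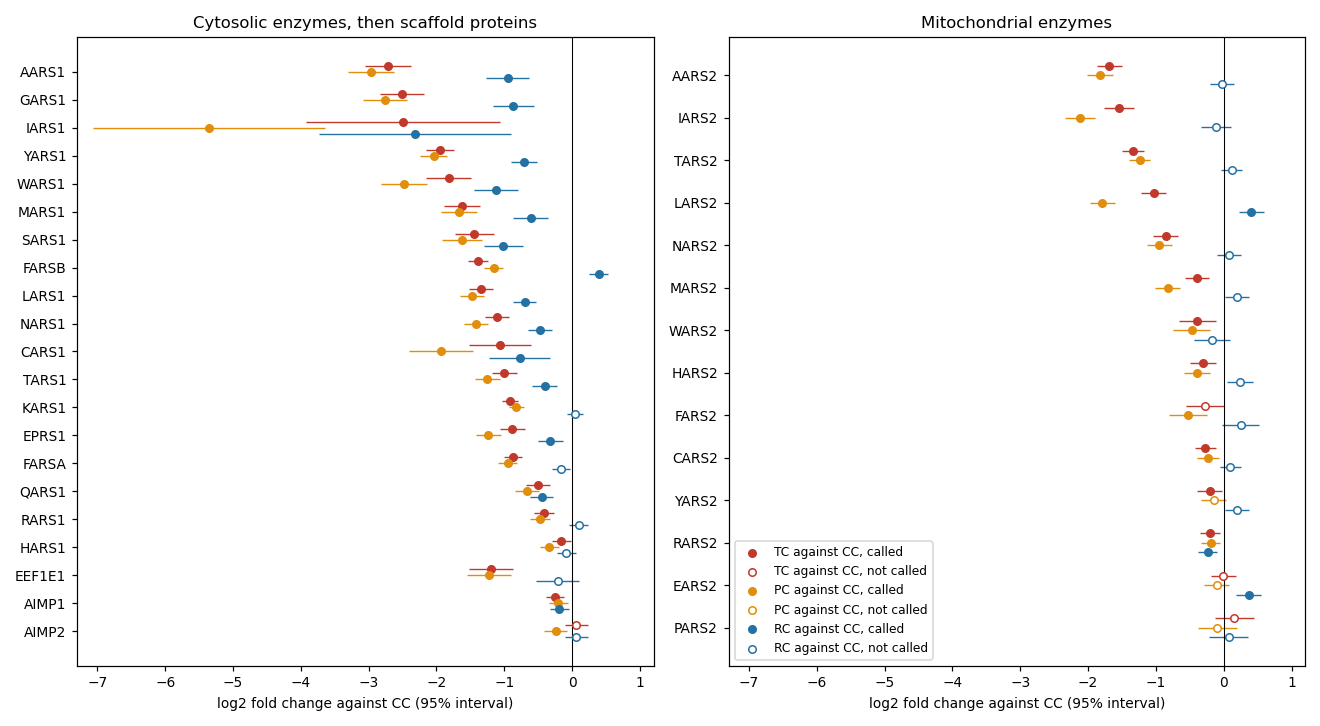
Log2 fold change against CC (x axis, with 95% interval) of 21 cytosolic and scaffold genes on the left and 14 mitochondrial enzymes on the right, ordered within each class by the TC value, with TC in red, PC in orange and RC in blue, filled where called and open where not. VARS1 is not drawn because 1 RC library decides its value. The 3 comparisons share the CC libraries; the blue RC points lie left of 0 for most cytosolic enzymes and around 0 for most mitochondrial enzymes.

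The cytosolic enzymes can be ordered by amino acid. The log2 fold change in TC was -2.71 for alanine (AARS1), -2.50 for glycine (GARS1), -2.49 for isoleucine (IARS1), -1.95 for tyrosine (YARS1) and -1.82 for tryptophan (WARS1). Next came methionine (MARS1, -1.62), serine (SARS1, -1.44), the beta chain of the phenylalanine enzyme (FARSB, -1.39), leucine (LARS1, -1.34), asparagine (NARS1, -1.11), cysteine (CARS1, -1.07) and threonine (TARS1, -1.0). Smaller falls were measured for lysine (KARS1, -0.92), glutamate and proline (EPRS1, -0.88), the alpha chain of the phenylalanine enzyme (FARSA, -0.87), glutamine (QARS1, -0.50), arginine (RARS1, -0.42) and histidine (HARS1, -0.16). HARS1 (adjusted p = 0.0375) was the call closest to the threshold in this class, and it missed the threshold in 10 of 19 alternative analyses, over which the adjusted p ran from 0.0152 to 0.157. Neighbours in this order had overlapping 95% intervals, for instance -3.05 to -2.37 for AARS1 and -2.83 to -2.18 for GARS1, except FARSA (-1.01 to -0.73) and QARS1 (-0.68 to -0.33). VARS1, the valine enzyme, was not called (1.94, interval -1.84 to 5.72).

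AARS1, which charges alanine tRNA, stood at 857.1, 623.6 and 659.5 CPM in CC and at 110.4, 110.9 and 105.2 CPM in TC. Every TC library lay far below the lowest CC library. In PC its level was 90.1, 91.2 and 92.8 CPM, and in RC 290.0, 361.5 and 456.7 CPM, between TC and CC without overlap. This gave a log2 fold change of -2.71 ± 0.16 (SE) in TC (adjusted p = 1.7e-08), -2.97 ± 0.16 in PC and -0.95 ± 0.15 in RC (adjusted p = 0.000459), so that the mean level was 15.3%, 12.8% and 51.8% of that in CC.

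GARS1, the glycine enzyme of both cytosol and mitochondria, stood at 533.6, 411.4 and 588.4 CPM for CC, 90.4, 90.1 and 89.6 for TC, 77.7, 72.8 and 75.3 for PC and 225.9, 278.6 and 336.6 for RC. The 4 groups did not overlap, and the CC and RC libraries were spread more widely than those of TC and PC. Its log2 fold change was -2.50 ± 0.15 in TC (adjusted p = 2.1e-08), -2.76 ± 0.15 in PC and -0.87 ± 0.14 in RC (adjusted p = 0.000599). KARS1, the other enzyme of both compartments, behaved otherwise. It averaged 323.4 ± 6.22 CPM for CC, 171.5 ± 1.38 for TC, 183.1 ± 3.97 for PC and 333.4 ± 15.7 for RC, where it was not called (0.04, interval -0.07 to 0.16).

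YARS1, which charges tyrosine tRNA, was measured at 609.3, 488.5 and 569.4 CPM for CC, 142.5, 143.3 and 146.0 for TC, 128.0, 135.0 and 141.7 for PC and 305.6, 341.5 and 372.7 for RC. All TC and PC libraries were below every RC library, and these below every CC library. In log2 terms the change was -1.95 ± 0.09 in TC (adjusted p = 3.38e-09), -2.04 ± 0.09 in PC and -0.71 ± 0.09 in RC (adjusted p = 0.000125).

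WARS1, the tryptophan enzyme, gave 616.0, 388.9 and 548.4 CPM for CC, 140.3, 149.2 and 151.1 for TC, 90.5, 91.9 and 95.3 for PC and 198.9, 235.9 and 277.3 for RC. Its PC libraries lay below all TC libraries, one of the few synthetases with a called fall between those groups (-0.67 ± 0.15, adjusted p = 0.00678). Against CC the log2 fold change was -1.82 ± 0.15 in TC (adjusted p = 4.82e-07), -2.48 ± 0.16 in PC and -1.12 ± 0.15 in RC (adjusted p = 0.000183).

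SARS1, the serine enzyme, was at 641.6, 460.3 and 605.6 CPM for CC, 213.8, 210.0 and 204.4 for TC, 186.3, 186.8 and 181.0 for PC and 231.5, 283.3 and 330.5 for RC. Its lowest RC library stood just above the highest TC library, and no RC library reached CC. On the log2 scale it differed from CC by -1.44 ± 0.13 in TC (adjusted p = 1.04e-06), -1.62 ± 0.13 in PC and -1.01 ± 0.13 in RC (adjusted p = 0.000146).

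EPRS1, the joined glutamate and proline enzyme of the complex, was at 477.1, 397.1 and 485.1 CPM for CC, 261.4, 247.1 and 229.5 for TC, 190.2, 190.1 and 197.2 for PC and 334.4, 373.1 and 379.5 for RC. No group overlapped another, with PC lowest. Its log2 fold change was -0.88 ± 0.08 in TC (adjusted p = 1.56e-06), -1.23 ± 0.08 in PC, and -0.32 ± 0.08 in RC (adjusted p = 0.0102, or 0.0515 without RC replicate 1).

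IARS1, the isoleucine enzyme, was at 12.7, 19.3 and 68.5 CPM for CC, 3.29, 9.4 and 5.24 for TC, 0.916, 0.999 and 0.532 for PC and 2.24, 8.15 and 9.61 for RC. CC replicate 3 stood far above the other CC libraries, although no TC, PC or RC library reached the lowest CC value. Relative to CC, the log2 value was -2.49 ± 0.66 in TC (adjusted p = 0.00493), -5.36 ± 0.78 in PC and -2.32 ± 0.65 in RC (adjusted p = 0.0147). Without CC replicate 3 the values were -1.41 in TC (adjusted p = 0.0362), -4.28 in PC and -1.25 in RC, where the call was lost (adjusted p = 0.0846). That TC value places IARS1 after MARS1 in the order, since MARS1 ran from -1.75 to -1.55 over the alternative analyses. SARS1 ran from -1.57 to -1.35 over them, so the order of IARS1 and SARS1 is not settled.

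**Figure D2:**
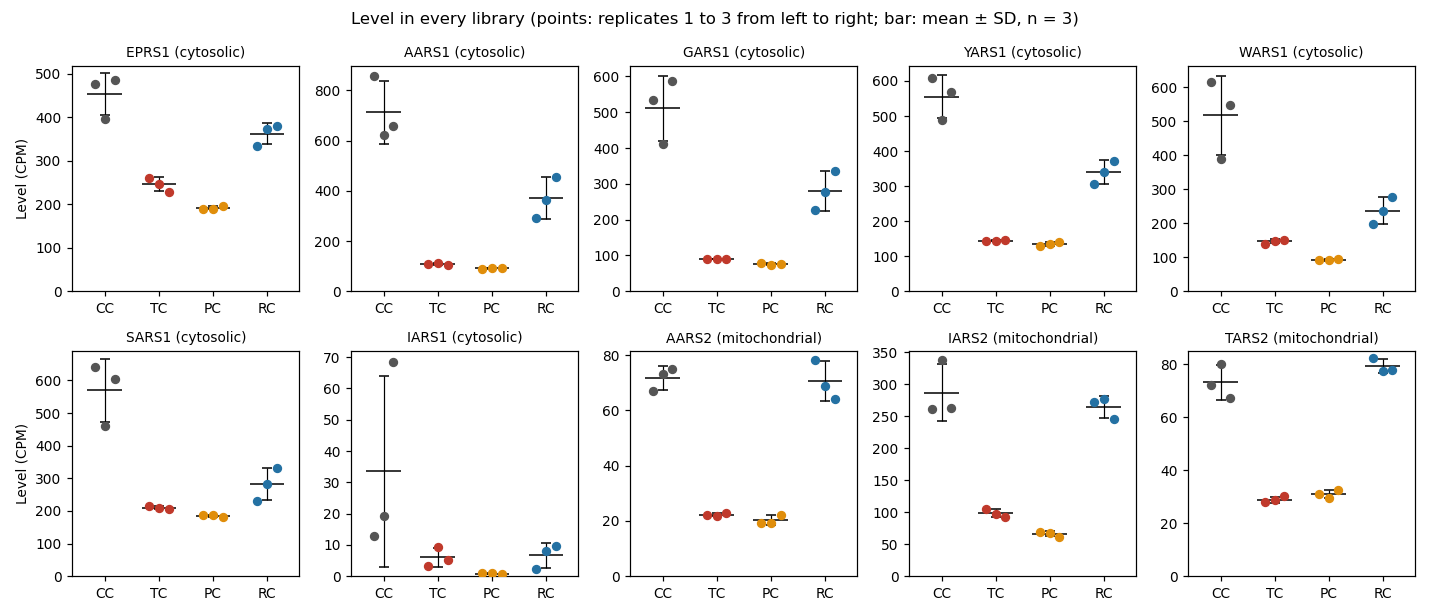
Level in CPM (y axis, from 0) of EPRS1, AARS1, GARS1, YARS1, WARS1, SARS1, IARS1, AARS2, IARS2 and TARS2 in every library, with points for replicates 1 to 3 from left to right within CC, TC, PC and RC, and bars for the mean ± SD. The 6 first cytosolic enzymes lie between TC and CC in RC, while AARS2, IARS2 and TARS2 overlap CC there; in CC, IARS1 ranges from 12.7 to 68.5 CPM.

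The scaffold genes moved unequally. EEF1E1, which encodes the small protein that anchors MARS1 in the multi-synthetase complex, was lower in TC (-1.19 ± 0.15, adjusted p = 1.71e-05), falling from 5.67 ± 0.851 to 2.48 ± 0.288 CPM. AIMP1 was also called lower, by a smaller amount (-0.25 ± 0.06), and AIMP2 was not called (0.06, interval -0.11 to 0.23). Reads of EEF1E1 and AIMP2 may be shared with neighbours, since 18.8% and 29.1% of their annotated exon bases overlap EEF1E1-BLOC1S5 and EIF2AK1. The 7 cytosolic enzymes of the complex (EPRS1, IARS1, KARS1, LARS1, MARS1, QARS1 and RARS1) were all lower in TC, with a median log2 fold change of -0.92, beside -1.25 for the 12 outside it. By catalytic fold, the medians were -1.34 for 9 class I and -1.11 for 9 class II enzymes. These sets keep the doubted members, and the differences between them were not tested.

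Among mitochondrial enzymes the falls were uneven. AARS2 (alanine) was at 67.0, 73.2 and 75.1 CPM for CC, 22.1, 21.9 and 22.9 for TC, 19.3, 19.3 and 22.3 for PC and 78.4, 68.8 and 64.2 for RC. TC and PC lay below every CC library and RC overlapped CC. The fitted log2 difference from CC was -1.69 ± 0.09 in TC (adjusted p = 7.07e-09), -1.82 ± 0.09 in PC and -0.03 in RC (interval -0.21 to 0.15).

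IARS2, the mitochondrial isoleucine enzyme, had 261.2, 337.9 and 262.4 CPM for CC, 105.0, 97.4 and 92.9 for TC, 69.0, 67.7 and 61.6 for PC and 272.5, 277.5 and 245.3 for RC. PC was lower than TC in every library, and that difference was called (-0.57 ± 0.10, adjusted p = 0.00155). Against CC it fell by 1.54 ± 0.10 in TC (adjusted p = 5.85e-08) and by 2.12 ± 0.10 in PC on the log2 scale, and in RC the value was -0.12 (interval -0.33 to 0.10).

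TARS2 (threonine) was at 72.2, 80.0 and 67.2 CPM for CC, 27.9, 28.7 and 30.1 for TC, 31.0, 29.7 and 32.4 for PC and 82.2, 77.5 and 78.0 for RC. TC and PC lay far below CC, and RC overlapped it. Its log2 change was -1.34 ± 0.07 in TC (adjusted p = 9.05e-09), -1.24 ± 0.07 in PC and 0.12 in RC (interval -0.04 to 0.27).

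LARS2 (leucine, -1.03) and NARS2 (asparagine, -0.85) also fell beyond 1.5-fold in TC. Smaller falls were called for MARS2 (-0.39), WARS2 (-0.39), HARS2 (-0.30), CARS2 (-0.27), YARS2 (-0.21) and RARS2 (-0.20), the enzymes of methionine, tryptophan, histidine, cysteine, tyrosine and arginine. YARS2 (adjusted p = 0.0428) missed the threshold in 12 of 19 alternative analyses. No call was made for EARS2 (glutamate, -0.01, interval -0.19 to 0.17), FARS2 (phenylalanine, -0.27, interval -0.55 to 0.00) or PARS2 (proline, 0.15, interval -0.14 to 0.44). So in mitochondria the glutamate and proline enzymes gave no call, while the joined cytosolic enzyme for both amino acids, EPRS1, fell, and within libraries EPRS1 dropped by 0.88 relative to EARS2 and by 1.01 relative to PARS2 on the log2 scale, without library overlap between TC and CC.

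Most members were still lower than in CC after 2 days without drug, and only FARSB was called higher than in TC. In PC against CC, 32 of 36 members (88.9%) were lower and 0 higher, against 35.9% and 33.2% of all tested genes. Beyond 1.5-fold, 22 members (61.1%) were lower and 0 higher, against 19.9% and 17.2%. Median log2 values were -1.42 for the cytosolic and -0.50 for the mitochondrial enzymes. Set directly against TC, 9 members (25.0%) were lower in PC and 1 (2.78%) higher, against 12.5% and 12.2% of all genes. The 9 were CARS1, EPRS1, IARS1, NARS1, WARS1, AIMP2, IARS2, LARS2 and MARS2, and LARS2 fell from 35.6 ± 2.32 to 21.0 ± 1.4 CPM. FARSB rose from 32 ± 1.22 to 37.5 ± 1.56 CPM (0.23 ± 0.06, adjusted p = 0.0234), a call lost when TC replicate 1, TC replicate 2, PC replicate 2 or PC replicate 3 was left out. The fall of CARS1 was not called when its copy was added (adjusted p = 0.177) or without TC replicate 2 (adjusted p = 0.0526). Calls were also lost for NARS1 without TC replicate 1 (adjusted p = 0.0682) or PC replicate 3 (0.0555), for AIMP2 without TC replicate 1 (0.0527) or PC replicate 2 (0.057) and for IARS1 without TC replicate 2 (0.0561) or PC replicate 3 (0.0658), and the number lower ran from 7 to 11 with each library left out. Without the doubted members, 3 of 16 cytosolic enzymes were lower in PC than in TC, and 16 of 16 were lower in PC than in CC.

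Between day 2 and day 9 without drug the enzymes rose almost throughout. In RC against PC, 33 of 36 members (91.7%) were higher and 0 lower, against 35.7% and 34.2% of all tested genes. All 19 cytosolic enzymes were among them, or 16 of 16 without the doubted members, with a median log2 fold change of 0.95, as were 12 of 14 mitochondrial enzymes, with a median of 0.71. LARS2 (2.2 ± 0.09), AARS1 (2.02 ± 0.15), IARS2 (2.00 ± 0.10), GARS1 (1.90 ± 0.14) and AARS2 (1.80 ± 0.09) rose most among the undoubted members. AIMP1 (0.01, interval -0.12 to 0.15), RARS2 (-0.05, interval -0.19 to 0.10) and PARS2 (0.17, interval -0.12 to 0.46) were not called. The rise of WARS2 (0.30, adjusted p = 0.0447) was lost in 10 of 19 alternative analyses and that of QARS1 (0.21, adjusted p = 0.0307) in 4.

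The classes differed in how close they came to CC after 9 days. In RC against CC, 15 of 36 members (41.7%) were lower and 4 (11.1%) higher, against 19.1% and 18.2% of all tested genes. Of the 15, 13 were cytosolic enzymes, 1 was the scaffold gene AIMP1 and 1 the mitochondrial enzyme RARS2 (-0.24 ± 0.07). The AIMP1 call (-0.19, adjusted p = 0.0332) was lost in 6 of 19 alternative analyses, and that of CARS1 when its copy was added (-0.61, adjusted p = 0.111). The RARS2 call was lost with only those groups in the fit (adjusted p = 0.0609) and without RC replicate 1 (adjusted p = 0.0646), whereas HARS2 (0.24, adjusted p = 0.0542) was called higher in 4 of 19 alternatives, DESeq2 among them (adjusted p = 0.0324). Without the doubted members, 11 of 16 cytosolic enzymes (68.8%) were lower and 1 higher. The cytosolic median was -0.47 and the mitochondrial median 0.11, beside 0.00 for all tested genes. Beyond 1.5-fold, 2 members were lower, SARS1 (adjusted p = 0.0233) and WARS1 (adjusted p = 0.0152), and 0 higher, against 2.52% and 1.35% of all genes. This last count rests on single libraries: it was 0 without CC replicate 1, RC replicate 1 or RC replicate 2, 1 without CC replicate 3, 4 without RC replicate 3 and 6 without CC replicate 2.

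Of the 18 cytosolic enzymes lower in both TC and PC, 13 were still lower in RC, 4 were not called and 1 was higher. Of the 10 such mitochondrial enzymes, 1 was still lower, 8 were not called and 1 was higher. The like share over all genes lower in both groups was not computed, and the comparisons share the CC libraries. Mean RC levels as a share of CC were 45.9% for WARS1, 49.5% for SARS1, 51.8% for AARS1, 54.9% for GARS1, 61.2% for YARS1 and 61.7% for LARS1. By the same measure FARSA was at 89.4%, HARS1 at 94.2%, KARS1 at 103.1% and RARS1 at 107.1%, and none of these 4 was called. QARS1 stood at 70.6% in TC, 63.2% in PC and 73.2% in RC, the last still a called fall (-0.45 ± 0.08, adjusted p = 0.00105). Both chains of the phenylalanine enzyme work as 1 complex, yet FARSB rose to 131.4% of CC (0.39 ± 0.06, adjusted p = 0.000623) and FARSA was below CC in all libraries without a call (-0.16, adjusted p = 0.0581). LARS2 (132.7%, 0.41 ± 0.08, adjusted p = 0.00232) and EARS2 (128.9%, 0.37 ± 0.08, adjusted p = 0.00464) were the mitochondrial enzymes called higher. The remaining higher call, VARS1 (5.30, adjusted p = 0.0353), came from RC replicate 2 and turned to -0.30 (adjusted p = 0.883) without it.

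**Figure D3:**
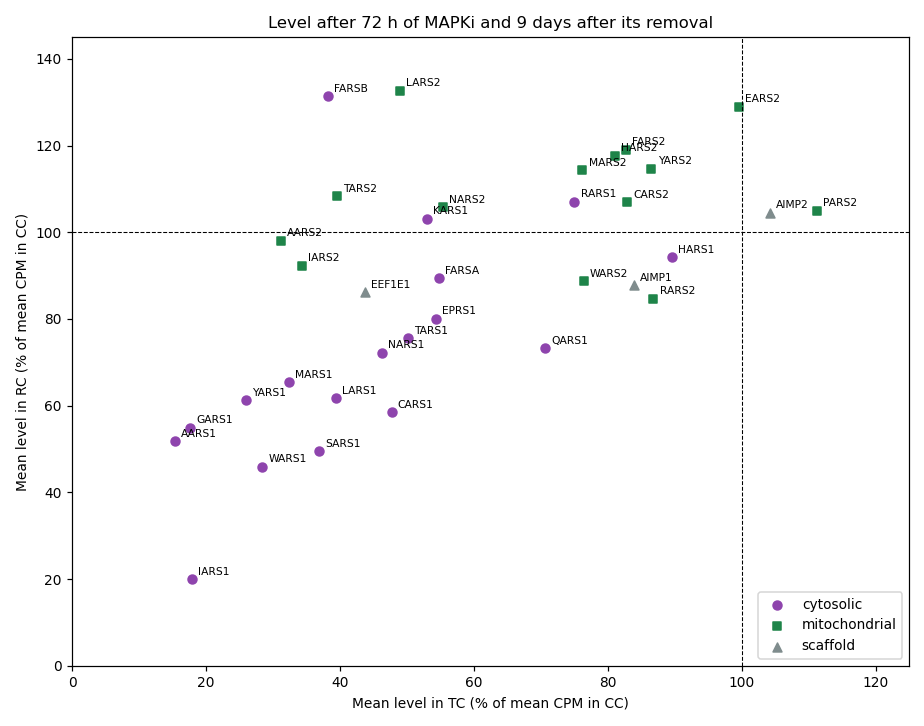
Mean level in RC (y axis) against mean level in TC (x axis), each as a percentage of the mean CPM in CC, for 35 tested members without VARS1, with circles for cytosolic enzymes, squares for mitochondrial enzymes and triangles for scaffold proteins, and dashed lines at the CC level. AARS1 and AARS2 stand at 15.3% and 31.1% in TC, and at 51.8% and 98.1% in RC; both axes share the CC mean.

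The CC libraries themselves were not alike for these genes. For 11 of the 16 undoubted cytosolic enzymes CC replicate 2 was the lowest CC library, and in RC, replicate 1 was lowest for 13 and replicate 3 highest for 13. ATF4 mRNA followed the same order, at 614.5, 532.8 and 769.1 CPM in CC and 292.5, 325.6 and 388.8 CPM in RC. Without CC replicate 2, the cytosolic minus the mitochondrial median of RC against CC was -0.69, beside -0.57 with all libraries. The part of these library differences in the RC values was not tested.

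Enzymes for the same amino acid were compared within each library as the log2 CPM of the cytosolic minus that of the mitochondrial enzyme, in 13 pairs whose members were all outside the doubted set. In TC the cytosolic enzyme was relatively lower than in CC, with no library overlap, in 10 pairs, relatively higher in 1 and overlapping in 2. As background, 34.7% of all tested genes were called lower in TC. That share, like the 35.9% in PC and 19.1% in RC, is of single genes called by edgeR, another measure than a pair without overlap, and no like share was computed for pairs. EPRS1 enters 2 of the pairs and FARS2 enters 2. Some gaps were narrow: in TC the leucine pair was lower by the third decimal only (highest TC library 2.587, lowest CC library 2.589) and the asparagine pair little more (4.332 and 4.354). These differences were not tested. In PC it was relatively lower in 10 and overlapping in 3. In RC it was relatively lower in 11, higher in 1 and overlapping in 1. The change of this difference from CC to TC was -1.74 for YARS1 and YARS2, -1.40 for WARS1 and WARS2, -1.22 for MARS1 and MARS2, and -1.03 for AARS1 and AARS2.

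The threonine pair went the other way in TC. TARS1 minus TARS2 was 1.94, 1.74 and 2.25 in CC and 2.35, 2.28 and 2.30 in TC, then 1.27, 1.46 and 1.63 in RC. For leucine the difference varied between groups, since LARS1 minus LARS2 was 3.029, 2.589 and 2.805 for CC, 2.502, 2.587 and 2.391 for TC, 3.13, 3.00 and 3.19 for PC and 1.52, 1.65 and 1.95 for RC. PC thus overlapped CC while RC lay below it. In RC the arginine pair was the exception, with RARS1 minus RARS2 at 1.53, 1.74 and 1.75 in CC and 2.06, 2.00 and 1.98 in RC. The histidine pair shares exon bases (8.46% of HARS1 overlaps other genes, HARS2 among them, and 6.99% of HARS2), so its reads are partly uncertain; it overlapped CC in TC and PC and lay below it in RC.

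**Figure D4:**
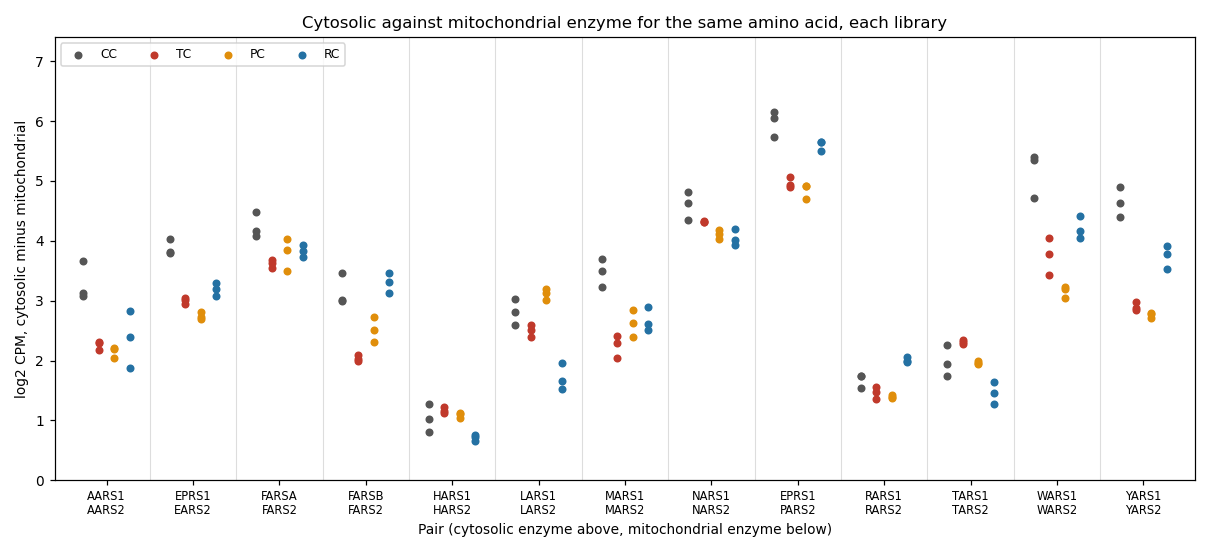
Log2 CPM of the cytosolic minus that of the mitochondrial enzyme (y axis, log2 scale) for 13 pairs (x axis), with 1 point per library in CC, TC, PC and RC. TC points lie below all CC points in 10 pairs and above them for TARS1 with TARS2; RC points lie below CC in 11 pairs and above it for RARS1 with RARS2.

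Summed over its members, the cytosolic class took 6288 ± 653.4 CPM for CC, 2451 ± 50.1 for TC, 2139 ± 32.7 for PC and 4202 ± 411.9 for RC. The mitochondrial class took 790.9 ± 61.6, 421.3 ± 14.6, 362.7 ± 4.23 and 821.0 ± 35.9 CPM. RC therefore lay below every CC library for the cytosolic sum (at most 4602 against at least 5543 CPM) and overlapped CC for the mitochondrial sum.

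Levels of different genes were compared per length, as CPM per kb of merged exon length (GENCODE v44), and in CC NARS1 was highest at 149.7 ± 13 CPM per kb, followed by SARS1 at 147.9 ± 24.9, a difference within the spread. EPRS1 (85.1 ± 9.14), WARS1 (81.5 ± 18.3) and KARS1 (79.8 ± 1.53 CPM per kb) came next and did not differ beyond their spread. IARS2 was the highest mitochondrial enzyme at 69.4 ± 10.6 CPM per kb. In RC the CPM per kb of KARS1 (82.3 ± 3.87) exceeded that of WARS1 (37.4 ± 6.17) and did not differ beyond the spread from that of SARS1 (73.2 ± 12.9). Merged exons take in every annotated transcript, and per kb of the MANE Select transcript, a scale added after the values were seen, SARS1 (297.4), YARS1 (227.5), NARS1 (221.6) and GARS1 (209.7 CPM per kb) led in CC, with GARS1 moving from rank 14 to rank 4.

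The promoter matches can be set beside the values. The 7 cytosolic members with TGATGNAA showed a median log2 value of -1.62 in TC, from -2.71 to -1.0, and the 9 matched members without it -0.88, from -1.82 to -0.16. In RC the medians were -0.77 and -0.16. Leaving out CARS1 and IARS1, the 5 remaining members with the element had medians of -1.62 in TC and -0.61 in RC. WARS1 and SARS1, which fell beyond 1.5-fold in all 3 comparisons with CC, had no match in their windows, and the difference between the sets was not tested.

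Genes around the synthetases moved in several ways. Of 15 tested genes of the ATF4 axis, 12 were lower and 1 (VLDLR) higher in TC, with a median log2 fold change of -2.20. In RC 12 were lower and 0 higher, with a median of -0.88. The shares of all tested genes were 34.7% lower and 33.2% higher in TC, and 19.1% and 18.2% in RC. ATF4 itself, whose CC and RC libraries are given above, averaged 189.7 ± 5.99 CPM in TC and 215.1 ± 6.7 CPM in PC, and was lower in each group (TC -1.75 ± 0.13, PC -1.57 ± 0.13, RC -0.93 ± 0.13, adjusted p = 0.000196 in RC). ASNS, the asparagine synthetase that makes the amino acid rather than loading it, had few counts in its row. It fell in TC (adjusted p = 0.000298), from 1.88 ± 0.509 to 0.304 ± 0.0722 CPM. Numbered copies were looked up for the members only, so whether the row holds all its counts was not tested. DDIT3, another ATF4 target, overlaps the end of MARS1, where 13.3% of the exon bases are shared with other genes, and it fell too (-2.77 in TC). The part of ATF4 in the synthetase values was not tested.

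Among 9 tested genes that act beside the synthetases in charging, 3 were higher and 4 lower in TC, with a median of -0.10. Of all tested genes, 33.2% were higher and 34.7% lower in TC, and 18.2% higher and 19.1% lower in RC. The largest called changes were DTD1, which removes wrongly attached D-amino acids (-0.89 ± 0.08), PSTK, a kinase of the selenocysteine route (0.77 ± 0.15), and QRSL1, a subunit of the mitochondrial glutamine amidotransferase (-0.58 ± 0.10). Of 14 genes of tRNA maturation, 9 were lower and 1 higher. XPOT, the exporter of tRNA from the nucleus, fell most among called genes (-1.82 ± 0.14), from 370.1 ± 84.9 to 104.9 ± 4.22 CPM, and stayed lower in RC (-0.51, adjusted p = 0.0115), with overlapping libraries. ELAC1, a nuclease of tRNA 3′ ends and repair, rose (1.27 ± 0.13), and POP1, a subunit of RNase P, fell (-1.04 ± 0.07). Of 8 mitochondrial translation factors, 6 were lower and 2 (MTIF3 and MTRF1L) higher in TC, with a median of -0.69, and in RC 0 were lower and 1 higher, with a median of 0.02.

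Adding the numbered copies to their genes, a choice made after the values were seen, gave a value to the members below the filter. VARS2 with its copies, the mitochondrial valine enzyme, was at 13.1, 10.0 and 8.91 CPM for CC, 6.79, 6.98 and 5.41 for TC, 4.21, 4.32 and 5.87 for PC and 9.33, 16.0 and 8.07 for RC. TC and PC lay below every CC library, and RC overlapped it. The log2 fold change was -0.74 ± 0.25 in TC (adjusted p = 0.019), -1.15 ± 0.25 in PC (adjusted p = 0.00137) and 0.06 ± 0.24 in RC. SARS2 with its copy ran from 0.444 to 9.97 CPM within CC and was called in none of the 5 comparisons. VARS1 with its copies ran from 1.14 to 28.3 CPM within CC, and RC was not called (0.06, adjusted p = 0.98), while PC was called lower (-4.70, adjusted p = 0.0218), a value set by the 28.3 CPM of CC replicate 2 beside 1.21 and 1.14 CPM in the other CC libraries.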

How the data were processed

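Raw read counts per gene were deposited for 12 libraries. Per the study's methods and processing notes, the authors trimmed reads with fastp 0.20.1, aligned them to GRCh38.p13 with HISAT2 2.2.1 and counted them on exons with HTSeq 0.13.5; the strand setting and the treatment of reads that align to several places are not given in the sources used here, which bears on overlapping genes and on members with numbered copies. Genes with a mean scaled count of at least 10 were tested (15916). A quasi-likelihood model with 1 mean per group was fitted in edgeR 4.0.16 (R 4.3.3, TMM factors 0.965 to 1.02, 8 residual degrees of freedom). Tests were two-sided. A gene was called when its p after Benjamini-Hochberg adjustment was under 0.05, and beyond 1.5-fold by glmTreat. At the lowest depth, 3 counts are 0.0794 CPM, which covers counting error only. On counts simulated with the depths and gene-wise spread of these libraries, 200 genes were given a 4-fold change in TC. For TC against CC, edgeR called 179 of these 200 genes and 7 of the 15716 left alone. Smaller or more widespread changes, such as those measured here, were not simulated. Within groups, no 2 libraries agreed within sampling noise. The alternatives were library totals, DESeq2 1.42.0 size factors, the DESeq2 test, a summed count of at least 2, only the groups compared, a replicate block and each library left out, and, added later, summed copies, leaving out doubted members and MANE Select lengths. The members and lists were chosen with earlier results of these data known. Every member could be named; values in every library were given for EPRS1, the 5 cytosolic and 3 mitochondrial members with the largest called change in TC, and members beyond 1.5-fold in RC. Protein sequences were not used here.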

Additional observations from a re-analysis of the deposited data

Results flagged for a closer look

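Numbered copies of members lay outside the comparisons, and 2 of them stood above every CC library, in CPM, in all libraries of another group. VARS1_2 averaged 0.909 CPM in RC (0.665, 1.8 and 0.265 CPM) against at most 0.212 CPM in CC. VARS1_5 averaged 1.43 CPM in TC, of which 4.07 CPM came from replicate 1 and 0.102 and 0.112 CPM from the others, against at most 0.0846 CPM in CC. Its counts were 157, 4 and 6 in TC and 0, 3 and 4 in CC, so outside TC replicate 1 the separation rests on a few counts.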

How the results depend on the processing

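Over 19 alternatives, 3305 of 3415 member values kept their side of the threshold, 84 lost a call and 25 gained one. Only 1 called value reversed, which was VARS1 in RC against CC (-0.30 without RC replicate 2, and 5.996 without CC replicate 2). A change of sign between uncalled values was counted as kept, for instance VARS1 in TC against CC (1.94, and -0.92 with copies summed). The number of members lower stayed at 28 to 31 in TC and 30 to 32 in PC when each library was left out. The number lower beyond 1.5-fold in RC was 1 with DESeq2 and 0 with only those groups in the fit, and ran from 0 to 6 with each library left out. The number higher in PC against TC was 0 with a summed count of at least 2 and ran from 0 to 1 with each library left out. The cytosolic minus the mitochondrial median, with no test, ran from -0.91 to -0.68 in TC, from -1.02 to -0.81 in PC and from -0.69 to -0.54 in RC with each library left out, and was -0.88 in TC without the doubted members. In RC against PC it was 0.048 with a summed count of at least 2 and 0.047 with copies summed, and ran from 0.17 to 0.33 with each library left out. Except where fewer samples were fitted or more genes tested, the cause was not tested.

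Same-numbered libraries deviated together in only 2 of 18 pairs (correlation -0.05 to 0.20), both of them between TC and PC, and the samples were not treated as paired. Their descriptions give libraries of the same number a shared suffix in all 4 groups without saying what it marks, so that a common origin cannot be told. With a replicate block, the count of members lower in TC stayed at 31, HARS1 (-0.17, adjusted p = 0.0435) and TARS1 (-0.25, adjusted p = 0.0144) gained a call in PC against TC, and VARS1 lost its calls in RC against CC (4.27, adjusted p = 0.11) and RC against PC (5.17, adjusted p = 0.0619), with no other call changed. The rows of SARS2, VARS2 and VARS1 hold the smaller part of the counts under their symbols, the rest lying in numbered copies, and n = 3 per group limits small changes such as HARS1 and YARS2.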
